A study of Homo sapiens with 4 samples.

Results

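The Notch genes described here are 10 genes of the Notch pathway, the receptors NOTCH1, NOTCH2, NOTCH3 and NOTCH4, the ligands JAG1, JAG2 and DLL1, the DNA-binding factor RBPJ, and the effectors HES1 and HEY1. They were taken by symbol from a table of 63677 genes, in which these 10 symbols occupied 17 rows, and the row with the highest mean was kept for each. NOTCH4 had 7 rows, of which the 6 not kept had 0 reads, and JAG1 had a second row, a processed transcript with 20 reads over all libraries. The cells were MDA-MB-231, an established human line of triple-negative breast cancer, transfected either with control siRNA (siCt, 2 libraries) or with pooled siRNAs that target AXL (siAXL, 2 libraries). AXL encodes a TAM family receptor with tyrosine kinase activity, and the study sought the transcripts that change with its depletion. A pool lowers its target without removing it, and all 4 libraries came from 1 cell line that had undergone transfection.

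Notch signalling passes between touching cells. A ligand of the Jagged or Delta type on one cell binds a Notch receptor on its neighbour, the receptor is cut by an ADAM protease and then by γ-secretase, and its freed intracellular part enters the nucleus, where it joins RBPJ and Mastermind coactivators on DNA. Without that partner RBPJ recruits corepressors, so that the same factor can hold target genes down or switch them on. HES and HEY genes, which encode basic helix-loop-helix repressors, are the classical targets. In breast cancer the pathway is known for its part in self-renewal and in invasive growth.

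RBPJ binds DNA at sites built around the letters TGGGAA, and HES1 is a well-known gene with RBPJ sites near its start. The windows below show these letters in the promoter of the effector and in one promoter of RBPJ itself, the gene with the smallest adjusted p-value among the 10. Both run 5′ to 3′ on the strand of the gene, from 250 bases before to 50 bases after a transcription start, in the RefSeq annotation of GRCh38.p14. Capitals mark TGGGAA, or its reverse complement TTCCCA. Only these exact letters were searched for. Sites that vary from them stay in lower case, so 2 marked copies need not be a known pair of sites.
HES1, chr3:194135898-194136197, plus strand: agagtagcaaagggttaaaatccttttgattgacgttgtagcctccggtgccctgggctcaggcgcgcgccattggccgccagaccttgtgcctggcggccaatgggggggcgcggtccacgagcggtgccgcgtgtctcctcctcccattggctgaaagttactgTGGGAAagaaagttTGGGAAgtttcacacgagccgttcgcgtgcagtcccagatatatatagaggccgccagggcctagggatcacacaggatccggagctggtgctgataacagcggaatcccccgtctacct
RBPJ, second of its 5 starts, chr4:26319496-26319795, plus strand: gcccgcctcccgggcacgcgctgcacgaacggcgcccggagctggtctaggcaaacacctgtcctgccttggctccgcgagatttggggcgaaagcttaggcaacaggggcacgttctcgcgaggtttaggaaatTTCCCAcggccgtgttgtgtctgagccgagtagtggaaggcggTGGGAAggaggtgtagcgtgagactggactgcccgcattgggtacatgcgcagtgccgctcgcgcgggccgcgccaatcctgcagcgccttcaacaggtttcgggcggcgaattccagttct
In HES1 both copies lay on the gene's own strand, with their first bases 84 and 70 bases before the start. In RBPJ one copy lay on each strand, with first bases 115 and 72 bases before the start. RefSeq gave 12 such windows for 8 of the 10 genes, and the other 10 windows, among them those of JAG1 and NOTCH1, held no copy on either strand. DLL1 and HEY1 had no window. Of all 35116 promoter windows of this length, 24.0% held at least 1 copy on either strand and 3.80% held 2 or more. A match of letters is a description of the window, and no binding was measured here.

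The libraries held between 39574387 and 44585773 reads counted in genes. AXL itself had 29189 and 30617 normalized counts in siCt 1 and siCt 2, against 8658 and 7141 in siAXL 1 and siAXL 2, so that 26.4% of its mean level was left (log2 fold change -1.93, SE 0.0918, adjusted p = 0.000585 in limma). Normalized counts are reads after division by the size factor that DESeq2 gave each library. The line showed its mesenchymal character in every library, with VIM between 86751 and 99296 normalized counts, while the hormone receptor genes ESR1 and PGR had at most 3 reads in any library. The 7 luminal epithelial markers, to which ESR1 and PGR belong, summed to 31086 and 33907 normalized counts in siCt and 26746 and 27956 in siAXL, nearly all of it the keratins KRT8 and KRT18. In limma KRT8 (log2 fold change -0.31, adjusted p = 0.0232) and CDH1 (-1.64, adjusted p = 0.0085) were called lower. GATA3 and KRT18 were lower in both siAXL libraries and not called. EPCAM went the other way, higher in both siAXL libraries (log2 fold change 0.32, adjusted p = 0.0513 in limma), and was not called. ESR1 and PGR were not tested. Markers of cell types from outside the epithelium had summed levels of 33.6 to 58.0 normalized counts for 3 leukocyte genes and 141 to 179 for 3 endothelial genes, of which PECAM1 was at 0. The 4 fibroblast markers summed to 322 and 363 in siCt and 484 and 452 in siAXL, most of it PDGFRB, with DCN and PDGFRA at no more than 2 reads per library. PDGFRB was called higher (log2 fold change 0.54, adjusted p = 0.0130 in limma), and LUM (-0.46) was not called. The part of any of these lists in the results below was not tested. Mitochondrial transcripts took 3.70% and 3.78% of reads in the libraries numbered 1 and 2.11% and 2.28% in those numbered 2. The labels do not say whether libraries of a group came from separate cultures, so the p-values measure the spread between these libraries, which may be technical.

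Per length of exon, RBPJ, JAG1 and NOTCH2 were the most abundant of the 10 transcripts. These levels are RPKM, that is reads scaled to the depth of the library and to exon length, with lengths from GENCODE release 29. In siCt, RBPJ stood at 33.0 ± 0.360 RPKM (SD, n = 2, as for all means that follow), JAG1 at 29.5 ± 1.30 and NOTCH2 at 20.2 ± 4.92. NOTCH1 followed at 5.20 ± 0.203, HES1 at 3.53 ± 0.145, JAG2 at 1.04 ± 0.0798 and HEY1 at 0.494 ± 0.0912. NOTCH4 at 0.0887 ± 0.0154, NOTCH3 at 0.0665 ± 0.0125 and DLL1 at 0.0222 ± 0.00177 were far lower. In siCt the libraries of each gene lay below those of the gene before it in this order. NOTCH4 and NOTCH3 changed places between groups, since in siAXL NOTCH3 had 0.107 and 0.0956 RPKM and NOTCH4 0.0851 and 0.0875. Among the other 8 genes the order was the same in siAXL.

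**Figure D1:**
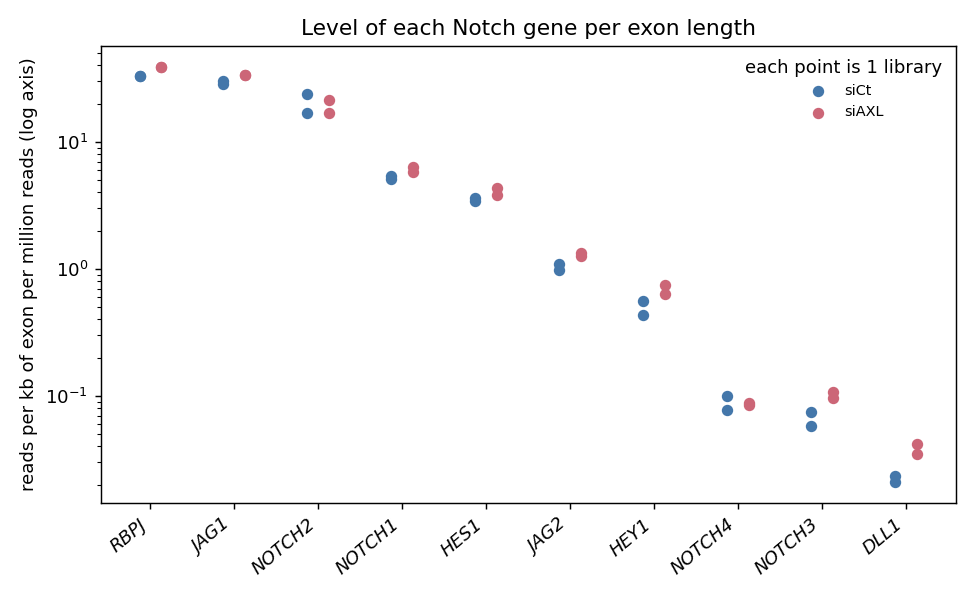
Level of each of the 10 Notch genes in RPKM, on a log axis, with 1 point for each library (blue siCt, red siAXL) and genes ordered by their siCt mean. RBPJ, JAG1 and NOTCH2 lie between 16.8 and 39.1, and DLL1 lies lowest, between 0.0210 and 0.0417.

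Among the 10 genes, 1 gene held most of the summed RPKM of the receptors, of the ligands and of the effectors. NOTCH2 made up 73.8% to 81.2% of the summed RPKM of the 4 receptors in the 4 libraries, and NOTCH1 18.3% to 25.4%, while NOTCH3 and NOTCH4 stayed under 1 percent each. JAG1 made up 96.1% to 96.8% of the summed RPKM of the 3 ligands. Between the effectors, HES1 held 85.3% to 88.9% of the summed RPKM and HEY1 the rest. HES4, an effector outside the 10 genes, had a mean of 5.05 RPKM in siCt, above the 3.53 of HES1. Levels of protein were not measured.

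After AXL depletion, 2 of the 10 Notch genes were called higher, RBPJ and JAG1, and none was called lower. Differences were tested by limma on the scale log2(normalized count + 1), where changes of weakly expressed genes appear too small, and calls required an adjusted p (Benjamini-Hochberg) below 0.05 across the 16064 genes tested. Of the 10 genes 9 entered the test, and DLL1 fell under the filter for low counts. In bulk RNA, a different number of cells expressing a gene and a different amount of RNA per cell cannot be told apart. Over all genes tested 10.8% were called higher and 7.91% lower. The 2 calls were 22.2% of the 9 genes, against 18.7% of all genes tested called in either direction. Of the 9 genes, 7 had both siAXL libraries above both siCt libraries, against 30.6% of all genes tested, and none had both below, against 30.5%. The median log2 fold change of the 9 was 0.25, where that of all genes tested was -0.0022. At an unadjusted p under 0.05 there were 6 of the 9 genes higher and 0 lower in limma, where 18.1% of all genes tested were higher and 15.9% lower at that threshold. In edgeR's quasi-likelihood test with TMM scaling on the recovered reads there were also 6 and 0, against 19.1% and 15.6%. DESeq2 on the same reads gave 4 and 0, against 7.96% and 6.78% of the 27108 genes with at least 1 read. With 2 libraries in each group the smallest two-sided p that an exact permutation test could reach is 0.333, and every call draws on the error that limma pools over genes.

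**Figure D2:**
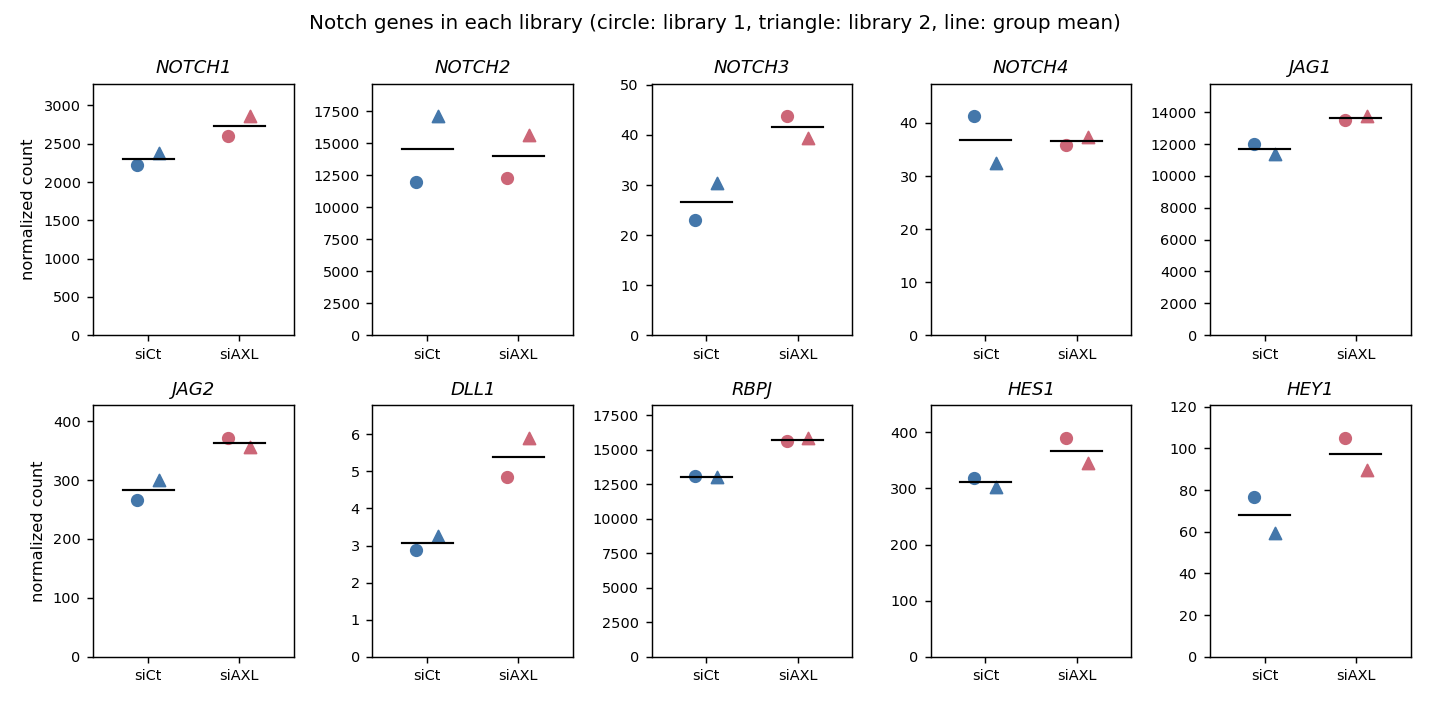
Normalized counts of the 10 Notch genes in each library, with a linear axis from 0 for each gene. Circles are the libraries numbered 1, triangles those numbered 2, blue siCt and red siAXL, and the black line is the group mean. Both siAXL points lie above both siCt points for all but NOTCH2 and NOTCH4.

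RBPJ (ENSG00000168214), the factor through which all 4 receptors reach DNA, had 13065 and 12991 normalized counts in siCt and 15599 and 15829.8 in siAXL. Its libraries were close within each group and well apart between groups. The rise was 1.21-fold, a log2 fold change of 0.27 (SE 0.0517, where SE is the standard error, and adjusted p = 0.0151 in limma). Leaving out either siAXL library kept its size (0.28 without siAXL 1, 0.26 without siAXL 2) but not the call, with limma adjusted p-values of 0.0688 and 0.0788. Under the other 12 alternatives RBPJ passed the threshold, the largest of these adjusted p-values being 0.0477 when every gene with at least 1 read was tested. Its pseudogenes RBPJP2, RBPJP5, RBPJP6 and RBPJP7 had 0 reads, as did the paralogue RBPJL. Counts of 0 do not show whether reads that fit both RBPJ and a pseudogene were lost in the authors' counting.

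JAG1 (ENSG00000101384), the Jagged ligand that these cells transcribed most, had 12009 and 11396 normalized counts in siCt and 13507 and 13741 in siAXL. The groups did not overlap, and the 2 siCt libraries lay further apart than the 2 siAXL libraries. It rose 1.16-fold, by 0.22 on the log2 scale (SE 0.0553, adjusted p = 0.0350 in limma). This call was less steady than that of RBPJ. It was lost without siCt 2 (0.18, adjusted p = 0.186), without siAXL 1 (0.23, adjusted p = 0.128), without siAXL 2 (0.21, adjusted p = 0.155), with all genes of at least 1 read tested (adjusted p = 0.0871) and with the trend in GC content and exon length removed (0.16, adjusted p = 0.100).

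JAG2 (ENSG00000184916), the second Jagged ligand, had 267 and 300.1 normalized counts in siCt against 371 and 356 in siAXL. Both siAXL libraries were higher, and the difference (log2 fold change 0.36, SE 0.107, adjusted p = 0.0580 in limma) did not pass the threshold. It was called without siCt 2 (0.45, adjusted p = 0.0305), and its size was 0.23 with the GC and length trend removed. DLL1 (ENSG00000198719), a Delta-like ligand, had 3 reads in each siCt library and 5 and 6 in the siAXL libraries. As CPM, counts scaled to library depth, these were 0.0677 (95% exact Clopper-Pearson interval 0.0140 to 0.198) and 0.0758 (0.0156 to 0.222) in siCt, and 0.112 (0.0364 to 0.262) and 0.135 (0.0494 to 0.293) in siAXL. The intervals overlap and cover counting error only, so a difference in DLL1 was not detectable at this depth.

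None of the 4 receptors passed the test, and NOTCH1 came closest. NOTCH1 (ENSG00000148400) had 2227.5 and 2377 normalized counts in siCt and 2606 and 2856 in siAXL. Both siAXL libraries were higher, by 1.19-fold in the mean. The log2 fold change was 0.25 (SE 0.0703, adjusted p = 0.0516 in limma). The call turned on small choices. NOTCH1 was past the threshold with TMM scaling (adjusted p = 0.0450 in limma), in edgeR's quasi-likelihood test with TMM scaling (0.0362) or with DESeq2 size factors (0.0489), and without siCt 2 (0.29, adjusted p = 0.0195). With the GC and length trend removed its log2 fold change was 0.10 (adjusted p = 0.385), and its longest GENCODE transcript has a GC content of 62.9%.

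NOTCH2 (ENSG00000134250), the receptor with the most transcript, had 11961 and 17093.5 normalized counts in siCt and 12282 and 15649 in siAXL. Its values followed the library number and not the siRNA, with both libraries numbered 2 above both numbered 1. Within each number the groups differed by 0.038 (number 1) and -0.13 (number 2) on the log2 scale, while siCt 2 stood at 143% of siCt 1 and siAXL 2 at 127% of siAXL 1. The log2 fold change was -0.045 (SE 0.173, 95% interval -0.45 to 0.36, adjusted p = 0.885 in limma). It turned positive without siCt 2 (0.21) and without siAXL 1 (0.13), and was called lower without siCt 1 (-0.30, adjusted p = 0.0165). NOTCH2NL, a partial copy of NOTCH2 of near-identical sequence, showed the same split, with 375 and 410 normalized counts in siCt 1 and siAXL 1 against 607 and 621 in siCt 2 and siAXL 2. Reads that fit both copies may have been lost or split by the authors' counting, so the level of NOTCH2 is uncertain to that extent.

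NOTCH3 and NOTCH4 rested on few reads. NOTCH3 (ENSG00000074181) had 24 and 28 reads in siCt and 45 and 40 in siAXL, or 23.0, 30.3, 43.7 and 39.3 normalized counts. Both siAXL libraries were higher, and the log2 fold change of 0.63 (SE 0.247, 95% interval 0.047 to 1.21) was not past the threshold (adjusted p = 0.122 in limma). NOTCH4 (ENSG00000204301) had 41.2 and 32.5 normalized counts in siCt and 35.9 and 37.3 in siAXL, which overlapped. Its log2 fold change was 0.00054 (SE 0.231, 95% interval -0.54 to 0.55, adjusted p = 0.999 in limma). GENCODE places 98 exon bases of NOTCH4 within GPSM3, on the same strand, which had 1062 reads per library against 37 for NOTCH4, so part of the NOTCH4 count is uncertain.

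The effectors HES1 and HEY1 were higher in both siAXL libraries, and neither was called. HES1 (ENSG00000114315), whose promoter is printed above, had 318 and 303 normalized counts in siCt and 389 and 345 in siAXL. The groups did not overlap, and the log2 fold change was 0.24 (SE 0.107, 95% interval -0.014 to 0.49, adjusted p = 0.168 in limma). Without siAXL 1 that value was 0.15. HEY1 (ENSG00000164683) had 76.7 and 59.6 normalized counts in siCt and 105 and 89.4 in siAXL. Its log2 fold change was 0.51 (SE 0.194, 95% interval 0.055 to 0.97, adjusted p = 0.111 in limma), and it was called without siCt 1 (0.69, adjusted p = 0.0294).

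**Figure D3:**
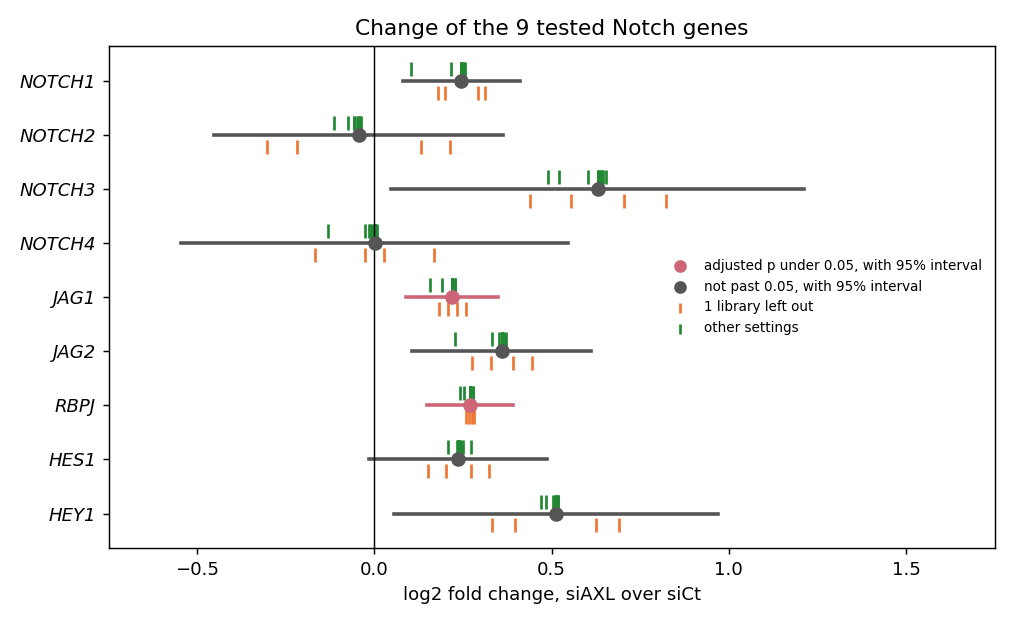
Log2 fold change of the 9 tested Notch genes, siAXL over siCt, as points with unadjusted 95% intervals from limma, red where the adjusted p was under 0.05. Orange ticks give the value with 1 library left out and green ticks the value under the other settings. The ticks of RBPJ stay between 0.24 and 0.28, and those of NOTCH2 and NOTCH4 lie on both sides of 0.

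Further genes of the pathway, 62 in all, were read from the same test, and 56 of them entered it. Of the 56, 13 were called higher and 1 lower, or 25.0% called against the 18.7% of all genes. Their median log2 fold change was 0.13, with 45 values above 0 and 11 below. It was 0.075 with the GC and length trend removed and 0.10 with scaling by library size alone. The last scaling also moved the background, to 9.56% of all genes called higher and 10.9% lower, and removing the GC and length trend moved it to 9.89% and 10.5%.

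Of these further lists, receptor cleavage, which holds proteases and subunits of γ-secretase, had the largest share of calls. All 9 genes of receptor cleavage were tested, 6 were called higher and none lower, where 10.8% of all genes were called higher and 7.91% lower, and the median log2 fold change was 0.30. FURIN, the convertase that cleaves the receptor on its way to the surface, rose from 2748.2 and 2747.8 normalized counts in siCt to 4085 and 4296 in siAXL (log2 fold change 0.61, SE 0.0568, adjusted p = 0.0021 in limma). NCSTN, the nicastrin subunit of γ-secretase, rose from 7547 and 7733 to 9926 and 10530.6 (0.42, SE 0.0564, adjusted p = 0.0050). ADAM17, one of the proteases that trim the receptor at the cell surface, rose from 3630.3 and 3816 to 4655 and 4827 (0.35, SE 0.0574, adjusted p = 0.0095). In each of the 3 genes both siAXL libraries were above both siCt libraries, and the call held under all 14 alternatives. Also called, and named with their values known, were APH1B, a subunit of γ-secretase (0.46, adjusted p = 0.0097), and ADAM10, the main protease of ligand-induced cleavage (0.26, adjusted p = 0.0344 in limma). APH1B kept its call under all 14 alternatives, and ADAM10 lost its call without siCt 1 (0.19), siAXL 1 (0.29) or siAXL 2 (0.22). ADAM10 was also not called with every gene of at least 1 read tested (adjusted p = 0.102 in limma).

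Not every gene of γ-secretase passed the test. PSEN2, a catalytic subunit, had a log2 fold change of 0.013 (95% interval from limma of -0.13 to 0.16). Of the alternative APH1 subunits, APH1B rose while APH1A, which had far more transcript per length (41.5 RPKM in siCt against 2.51), had a log2 fold change of 0.12 (adjusted p = 0.208). PSENEN, which encodes the small PEN-2 subunit, stood at 0.095 (adjusted p = 0.519). The difference between APH1B and APH1A was not tested.

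**Figure D4:**
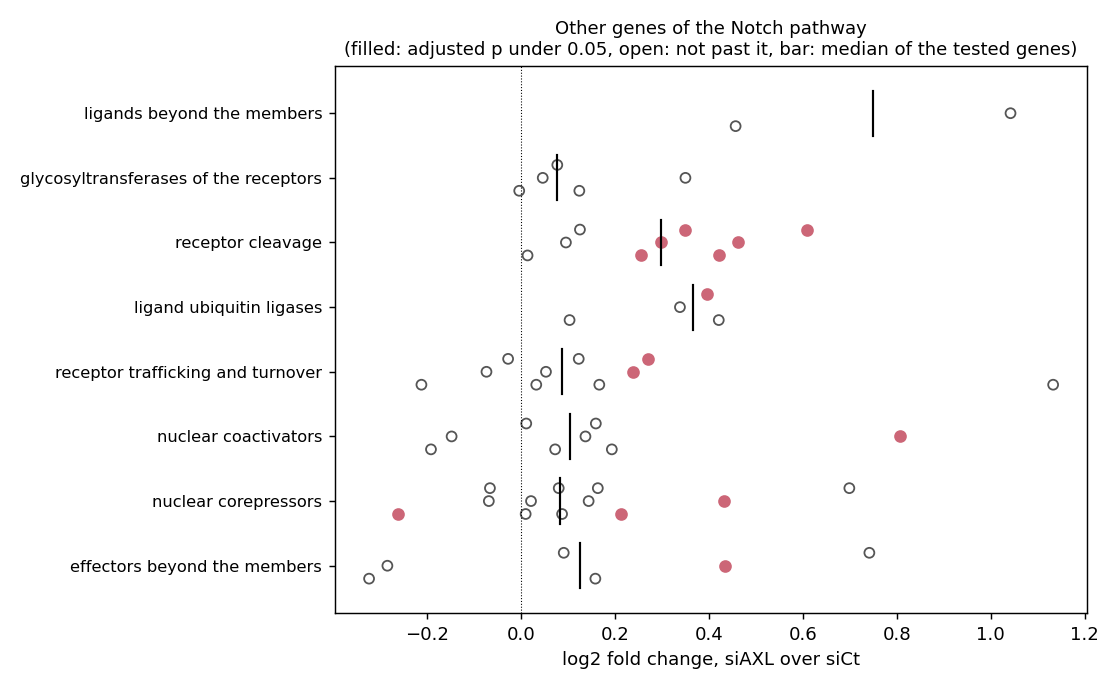
Log2 fold change, siAXL over siCt, of the 56 tested genes of the pathway beyond the first 10, in rows by role. Filled red points passed an adjusted p of 0.05, open points did not, and the black bar is the median of the row. Receptor cleavage has 6 filled points, all to the right of 0, and TLE3 among the corepressors is the only filled point to the left.

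In the nucleus, the coactivator MAML3 rose most among the called genes of the pathway lists. MAML3, a Mastermind protein that binds the complex of RBPJ and Notch, had 391 and 358 normalized counts in siCt and 660.4 and 650.5 in siAXL (log2 fold change 0.81, SE 0.0898, adjusted p = 0.0031 in limma), and it was called under all 14 alternatives. It was the only 1 of 8 coactivators called, where 10.8% of all genes tested were called higher and 7.91% lower. EP300, an acetyltransferase of that complex, had a log2 fold change of -0.19 (adjusted p = 0.104). With the GC and length trend removed EP300 was called lower (-0.27, adjusted p = 0.0216 in limma), and its value was -0.24 without siCt 1. It stayed uncalled under 11 of the 14 alternatives. Among the 12 corepressors tested, 2 were called higher, TLE3 was called lower and 9 were not called, against those same shares of all genes. Of the 2 called higher, CTBP2 had the smallest adjusted p. CTBP2 rose from 3668 and 3286 to 4709 and 4653 normalized counts (0.43, SE 0.0674, adjusted p = 0.0080). TLE3, a Groucho-type corepressor recruited by HES proteins, fell from 3275 and 3567 to 2844 and 2853.5 (-0.26, SE 0.0631, adjusted p = 0.0305). TLE3 lost its call without siCt 2 (-0.20), siAXL 1 (-0.26) or siAXL 2 (-0.27). It was also not called with every gene of at least 1 read tested (adjusted p = 0.0873 in limma).

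Among regulators of ligands and receptors outside the nucleus, 1 of 4 ligand ubiquitin ligases and 2 of 10 tested genes for receptor trafficking and turnover were called higher and none lower, where 10.8% of all genes were called higher. MIB2, a ubiquitin ligase that lets the ligand cell take up its ligand, was the ligase called (log2 fold change 0.40, SE 0.107, adjusted p = 0.0434 in limma), and it was not called without siAXL 1 (0.27, adjusted p = 0.170). With TMM scaling, library-size scaling or edgeR with TMM its adjusted p was 0.0516, 0.0690 and 0.0530, and its value fell to 0.20 with the GC and length trend removed. For trafficking and turnover, FBXW7, the ubiquitin ligase adaptor that marks the freed intracellular domain for destruction, was higher (0.27, SE 0.0646, adjusted p = 0.0298). NEDD4, another ubiquitin ligase, was higher by 0.24 (SE 0.0622, adjusted p = 0.0388). Both were called without siCt 1 but not without siCt 2, siAXL 1 or siAXL 2. FBXW7 was also not called in DESeq2 (adjusted p = 0.0537) or, in limma, with the GC and length trend removed (0.0610). With every gene of at least 1 read tested, neither FBXW7 (adjusted p = 0.0660 in limma) nor NEDD4 (0.103) was called. DTX2, a Deltex protein, had a log2 fold change of -0.21 (adjusted p = 0.0549). In limma it was called lower with the GC and length trend removed (-0.32, adjusted p = 0.0161) and with library-size scaling (-0.24, adjusted p = 0.0347). It stayed uncalled under 11 of the 14 alternatives.

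Of the 5 glycosyltransferases that modify the receptor none was called, where 18.7% of all genes tested were called in either direction. POGLUT1 was the closest at 0.35 (adjusted p = 0.0533 in limma). Among 4 further ligands 2 were tested and none was called, against that same share. Lists this short can hold no call at that share. DLL4, a Delta-like ligand known from blood vessels, had 7.67 and 7.58 normalized counts in siCt and 20.4 and 13.8 in siAXL (log2 fold change 1.04, adjusted p = 0.0879), and DLK2 had 110 and 101 against 141 and 149 (0.46, adjusted p = 0.0641). DLL3 had 2 reads over all libraries and DLK1 none, and neither was tested.

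Among 8 further effectors, 6 were tested and HES6 alone was called, where 10.8% of all genes tested were called higher and 7.91% lower. HES6, which differs from the other HES proteins in opposing HES1, had 147 and 140 normalized counts in siCt and 195 and 193 in siAXL (log2 fold change 0.43, SE 0.122, adjusted p = 0.0491 in limma). It lost the call under 9 of the 14 alternatives, among them each in which 1 library was left out, where its value stayed between 0.40 and 0.47, and the DESeq2 test (adjusted p = 0.188). NRARP, a direct target that damps the receptor's signal, stood at 47.9 and 56.3 in siCt and 40.8 and 44.2 in siAXL, lower in both siAXL libraries (-0.29, adjusted p = 0.379). HEYL was also lower in both, from few reads (-0.32, adjusted p = 0.557). The other 3 tested, HES2, HES4 and HES7, had log2 fold changes of 0.090, 0.16 and 0.74 and were not called.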

How the data were processed

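RNA from 2 siCt and 2 siAXL libraries of MDA-MB-231 was analysed, grouped by the titles in the labels. The authors deposited 1 table of normalized counts, a signal made by scaling each gene's reads with the size factor that DESeq2 estimated per library. The submitters' processing notes name CASAVA 1.8, TopHat2 2.0.10, HTSeq 0.5.3, DESeq2 1.4.5 and GRCh37, without saying which did what, and the strand setting is not given in the sources used here. Columns with the authors' own comparison (fold change with its error, test statistic, raw and adjusted p-value) were not used. In each library 100% of values equalled a whole number of reads times a constant (tolerance 0.01), so reads were recovered by division.

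After filterByExpr of edgeR, applied to the recovered reads, genes were tested with limma 3.58.1 (lmFit, eBayes with an intensity trend, R 4.3.3) on log2(normalized count + 1), without covariates. Alternatives were edgeR 4.0.16 (1850 genes called higher, 1272 lower) and DESeq2 1.42.0 (1488 higher, 1110 lower) on the recovered reads, other scalings, filters and pseudocounts, a replicate block, removal of the trend with GC content and exon length (mgcv 1.9.3), and each library left out. Scripts were tested on simulated data. A count of 0 allows up to 3 reads. Exon lengths and overlaps came from GENCODE release 29 (GRCh38) by Ensembl identifier, and promoter windows from RefSeq. GC content was that of the longest GENCODE transcript of each gene.

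The 10 genes, the pathway lists and the tests were chosen with earlier results of these data known. The text names all 10 genes, AXL, and of each list up to 3 called genes in each direction with the smallest adjusted p, genes with no read, and genes that could share reads with the 10. APH1B, ADAM10, PSEN2, APH1A, PSENEN, DLL4, DLK2, DLL3, POGLUT1, DTX2, EP300, NRARP, HEYL, HES2, HES4 and HES7 were named after their values were seen. Values of some listed genes are not reported here. Lists were compiled by hand from general knowledge.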

Additional observations from a re-analysis of the deposited data

How the results depend on the processing

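AXL and RBPJ kept their direction under all 14 alternatives, AXL with its call and RBPJ with its call in 12. The number of the 10 Notch genes called higher was 2, and it became 1 with every gene of at least 1 read tested, 1 with the GC and length trend removed and 0 to 3 with 1 library left out, while the number lower was 0 and became 0 to 1. For the other pathway genes, 13 were higher (6 with at least 1 read, 7 to 13 with 1 library left out) and 1 lower (2 with library-size scaling, 0 with at least 1 read, 3 with GC and length removed, 0 to 3 with 1 library left out). Over all genes 1735 were higher (757 with at least 1 read, 872 to 2158 with 1 library left out) and 1271 lower (340, and 413 to 1742). With 1 library left out, the lowest counts of Notch genes called higher and of all genes came without siAXL 1 or siAXL 2. NOTCH4 changed sign, to -0.028 with library-size scaling, -0.00079 with pseudocount 8, -0.0074 in edgeR with TMM, -0.016 in edgeR with DESeq2 size factors, -0.012 in DESeq2, -0.13 with GC and length removed, and from -0.17 to 0.17 with 1 library left out. NOTCH2 ran from -0.30 to 0.21 with 1 library left out. PSEN2 was -0.016 with library-size scaling, -0.024 with GC and length removed and -0.013 to 0.040 with 1 library left out, and PSENEN ran from -0.018 to 0.21. The cause of these changes was not tested. Calls made higher were 57.7% of all calls, 46.8% with library-size scaling and 48.6% with GC and length removed.

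The replicate numbers are shared by the groups, but the labels do not say that they pair the libraries, and the differences between numbers 2 and 1 correlated at 0.271 across genes between siCt and siAXL. With the number as a replicate block, 7 Notch genes were higher, namely RBPJ, JAG1, NOTCH1 (limma adjusted p = 1.0e-05), JAG2 (0.0013), HEY1 (0.0105), HES1 (0.0264) and NOTCH3 (0.0406), 27 other pathway genes were higher and 4 lower, and 3737 of all genes were higher and 3573 lower. Depth limits DLL1, NOTCH3, NOTCH4 and HEY1, of which HEY1 had the most reads, 55 to 108 per library.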
